A study of Ursus arctos with 12 samples.

Results

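The genes described here were 7 genes of the cold-shock response and its RNA-binding proteins, *CIRBP*, *RBM3*, *YBX1*, *YBX3*, *CSDC2*, *CARHSP1* and *RTN3*. They were taken by gene symbol, and 7 of the 30249 genes counted carried these symbols. Their grouping was proposed with winter and summer levels of these libraries already known, and they were thus chosen in part from the measured seasonal difference. That difference is given for them as a description, with no test.

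The libraries came from biopsies of the vastus lateralis, a thigh muscle, of 6 free-ranging brown bears (*Ursus arctos*) aged 2 to 3 years. Each bear gave a library from winter, when it was caught in hibernation, and another from summer, when it was caught in its active period of the same year. The seasons differ in feeding, activity and body temperature together, and these cannot be told apart here. Poly-A RNA was sequenced with strand kept, and between 16742406 and 32140160 reads per library were counted on genes.

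Mammalian cells that are cooled mildly lower most protein synthesis, yet they make more of a small set of RNA-binding proteins. *CIRBP* and *RBM3* encode the best known of these, short proteins with an RNA recognition motif and a glycine-rich tail that bind messenger RNAs and affect their stability and translation. *YBX1*, *YBX3*, *CSDC2* and *CARHSP1* encode proteins with a cold-shock domain, an ancient fold that bacteria use in their own response to cold. *RTN3*, a reticulon of the endoplasmic reticulum, has no RNA-binding domain, and stands here because its translation was reported to depend on RBM3 in cooled neurons. Brown bears hibernate at a body temperature only a few degrees below that of summer.

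Winter and summer were compared over the 17290 genes with at least 30 reads in all, with edgeR's quasi-likelihood test and Benjamini-Hochberg adjustment. All 7 genes passed this filter. Levels are given as CPM, read counts scaled to a common library size with TMM factors, or as log2 CPM with a prior count of 2, and a log2 fold change is the winter minus summer difference of the fit. At an adjusted p below 0.05, 3 of the 7 genes were higher in winter and 1 was lower. Among all genes tested, 19.6% were called higher and 19.9% lower. The winter libraries lay wholly above the summer libraries for 3 of the 7 genes and wholly below for 0, where 9.12% of all genes tested lay wholly above and 8.21% wholly below. The median log2 fold change was 0.66 for the 7 genes and 0.00 for all genes tested. These counts restate the values the genes were proposed from.

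Skeletal muscle markers dominated the libraries. Summed over 7 genes such as *ACTA1*, *CKM* and *TTN*, they held 107722 to 179471 CPM in summer and 110275 to 145422 in winter, with 1 of 7 higher (*TTN*) and 2 lower (*ACTA1* and *MB*). Markers of endothelial cells were at 577 to 916 CPM in summer and 381 to 449 in winter, with 4 of 5 lower at an adjusted p below 0.05. Those of smooth muscle and pericytes were at 431 to 560 and 230 to 323 CPM, with 1 of 4 lower. Fibroblast markers lay at 589 to 1187 and 189 to 949 CPM with 2 of 4 lower, and macrophage markers at 47.3 to 97.2 and 35.1 to 62.2 CPM with 2 of 4 lower. Adipocyte markers lay at 293 to 1311 and 216 to 452 CPM, with 1 of 4 higher and 1 lower, and Schwann cell markers at 40.7 to 97.6 and 39.7 to 147 CPM, with 1 of 4 lower. The erythroid list was reduced to *ALAS2*, which was not called, with a log2 fold change of 0.25. In such bulk RNA, fewer cells of a type and less RNA per cell cannot be told apart, and the part of these cell types in the values below was not tested. The winter library of bear 1509 stood apart on the second principal component, which held 14.6% of the variance, at 98.6 against −23.1 to −6.35 for the other winter libraries. Some of the fold changes and correlations that moved with this bear are also given without it.

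**Figure D1:**
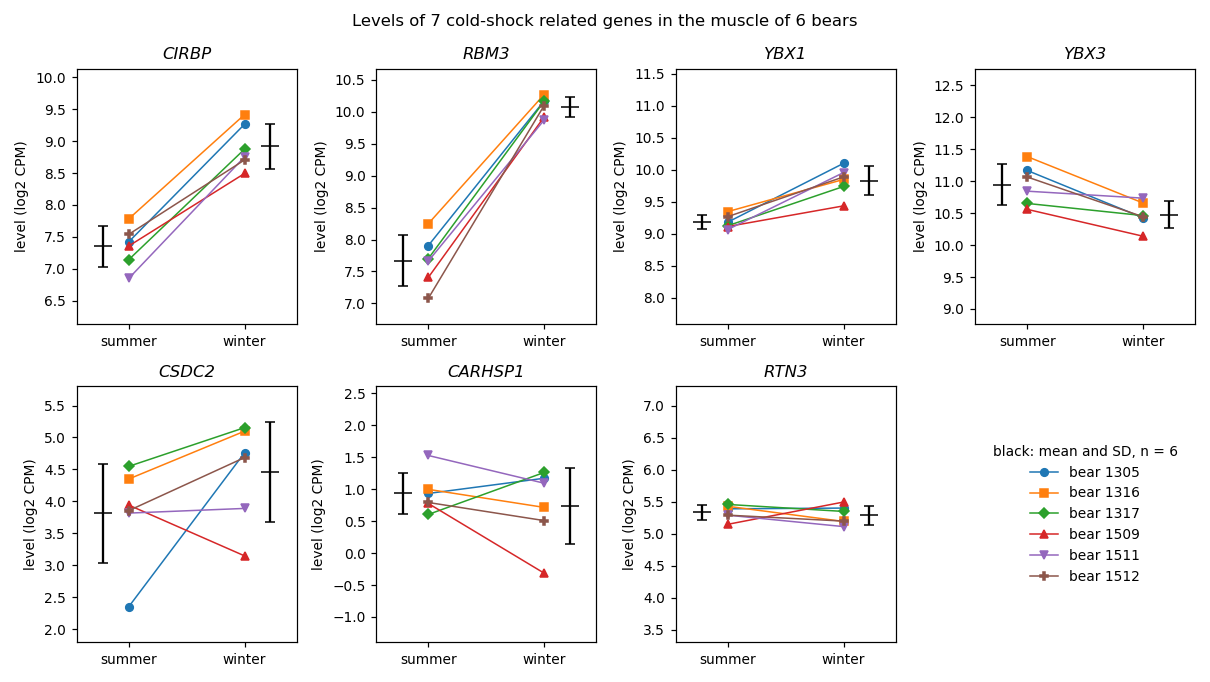
Level (log2 CPM) of each of the 7 genes in the summer and winter library of each bear, joined by a line, with the mean and SD of the 6 bears in black. Every panel spans 4 log2 units. The winter values of CIRBP, RBM3 and YBX1 sit above every summer value, while those of RTN3, at 5.11 to 5.50, overlap its summer values of 5.15 to 5.46.

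*RBM3* had the largest seasonal difference of the 7. It was at 210 ± 58.3 CPM in summer and 1088 ± 115 CPM in winter (SD, n = 6 bears), and its share of all reads was 0.0136 to 0.0283% in summer and 0.0904 to 0.116% in winter. In log2 CPM the summer libraries had a lowest value of 7.08, a median of 7.68 and a highest of 8.25, and the winter libraries had 9.87, 10.13 and 10.27. The 2 seasons were far apart, and the winter libraries were also close to each other. The SD between bears was 0.40 in summer and 0.16 in winter on the log2 scale. The log2 fold change was 2.37 (standard error 0.17), or 5.18-fold, and single bears ranged from 2.02 in bear 1316 to 3.02 in bear 1512. The bear with the lowest summer level, 1512, had the largest difference, and the bear with the highest, 1316, had the smallest. This follows in part from the arithmetic, because the summer level is subtracted to give the difference. Of the 222 other genes with at least as high a mean log2 CPM, 2 had a larger log2 fold change upwards, both listed under LOC numbers. Over all 17290 genes tested, *RBM3* ranked 421 from the highest log2 fold change. Both ranks restate the difference that the gene was proposed from. Counts per gene do not separate isoforms, so the known alternative exons of *RBM3* and *CIRBP* transcripts were not resolved.

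*CIRBP*, the close relative of *RBM3*, was also higher in winter in 6 of 6 bears. It was at 167 ± 36.2 CPM in summer and 496 ± 125 CPM in winter (SD, n = 6 bears). The lowest, median and highest log2 CPM were 6.85, 7.39 and 7.78 in summer and 8.49, 8.81 and 9.41 in winter. No winter library reached down to the summer range, and bears 1305 and 1316 had the highest winter values, at 9.26 and 9.41. The log2 fold change was 1.57 (standard error 0.18), or 2.98-fold, being smallest in bears 1509 (1.13) and 1512 (1.16) and between 1.63 and 1.90 elsewhere. Without bear 1509 it was 1.66. Of the 396 other genes at or above its mean level, 7 had a larger log2 fold change upwards, among them *RBM3* itself and the muscle Z-disc gene *PDLIM3*. Over all 17290 genes tested, *CIRBP* ranked 893 from the highest. These ranks too restate the difference that *CIRBP* was proposed from. Together *RBM3* and *CIRBP* took 0.0324 to 0.0488% of the reads of a summer library and 0.132 to 0.179% of those of a winter library.

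Within a library, the ratio of *RBM3* to *CIRBP* reads does not depend on how libraries are scaled. In summer there were 0.726 to 1.75 *RBM3* reads per *CIRBP* read (median 1.39), and in winter 1.81 to 2.68 (median 2.30). The ratio was higher in winter in 6 of 6 bears, and the 2 seasons did not overlap, although the highest summer library (bear 1511, 1.75) and the lowest winter library (bear 1316, 1.81) were close. The change in a bear ran from 1.24-fold in bear 1511 to 3.61-fold in bear 1512, where the summer ratio was the lowest of all. *RBM3* thus differed more between seasons than *CIRBP* did in each of the bears, by very different amounts.

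**Figure D2:**
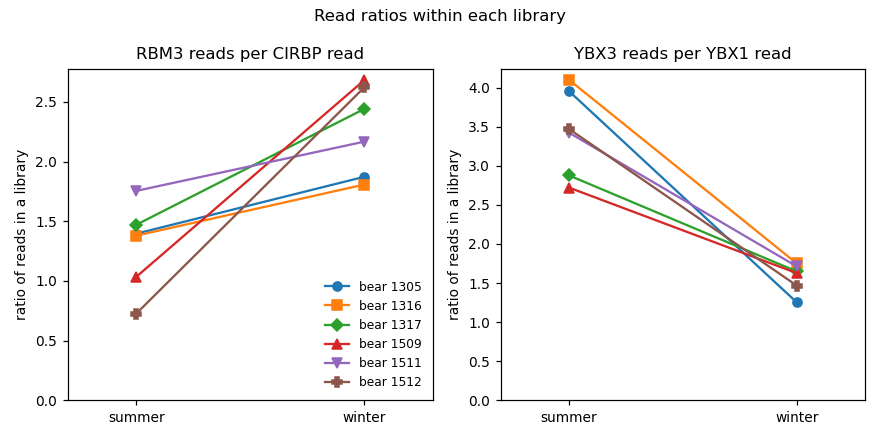
Ratio of RBM3 to CIRBP reads (left) and of YBX3 to YBX1 reads (right) in the summer and winter library of each bear, on linear axes that start at 0. The left ratio was higher in winter in 6 of 6 bears and the right ratio lower in 6 of 6, with no overlap between seasons in either.

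The 2 Y-box genes went in opposite directions. *YBX1* encodes YB-1, a major packaging protein of cytoplasmic messenger RNA, and *YBX3* encodes a paralogue that is abundant in skeletal muscle. *YBX1* was at 583 ± 43.4 CPM in summer and 919 ± 137 CPM in winter (SD, n = 6 bears). Its lowest, median and highest log2 CPM were 9.07, 9.15 and 9.35 in summer and 9.44, 9.87 and 10.10 in winter. The summer libraries were tightly grouped and lay below every winter library, the lowest winter value being that of bear 1509. The log2 fold change was 0.66 (standard error 0.12), higher in 6 of 6 bears by 0.32 in bear 1509 to 0.92 in bear 1305, and 0.72 without bear 1509. *YBX1* has processed copies in mammalian genomes, and the methods do not state how reads matching several places were counted. The effect of this on its counts was not tested.

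*YBX3* was at 2011 ± 443 CPM in summer and 1437 ± 203 CPM in winter (SD, n = 6 bears). Its lowest, median and highest log2 CPM were 10.56, 10.95 and 11.38 in summer and 10.14, 10.45 and 10.73 in winter. Here the seasons overlapped, although each bear was lower in winter than in its own summer library. The log2 fold change was −0.48 (standard error 0.16), with single bears from −0.74 in bear 1305 to −0.11 in bear 1511. Leaving out bear 1305, 1316 or 1512 gave −0.44, −0.42 and −0.45, and in each of these fits the number of the 7 genes called lower fell to 0. As a result of both differences, a library held 2.72 to 4.10 *YBX3* reads per *YBX1* read in summer (median 3.45) and 1.25 to 1.75 in winter (median 1.64). The ratio was lower in winter in 6 of 6 bears, from 0.598 of the summer ratio in bear 1509 to 0.316 of it in bear 1305, and the seasons did not overlap.

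*CSDC2*, which encodes a cold-shock domain protein first described in brain that binds histone messenger RNAs, varied most between bears. It was at 15.4 ± 6.28 CPM in summer and 24.3 ± 10.6 CPM in winter (SD, n = 6 bears), from 138 to 814 reads per library. The lowest, median and highest log2 CPM were 2.35, 3.90 and 4.55 in summer and 3.15, 4.72 and 5.15 in winter. The seasons overlapped widely, since the summer library of bear 1305 lay well below the other summer libraries and the winter libraries of bears 1509 and 1511, at 3.15 and 3.89, below the other winter libraries. Single bears went from −0.79 in bear 1509 to 2.41 in bear 1305, with 5 of 6 higher in winter. The log2 fold change was 0.66 (standard error 0.35), 0.43 without bear 1305 and 0.84 without bear 1509. The biological coefficient of variation, the relative spread that edgeR estimates between libraries of one season, was 0.426, above that of 97.4% of the genes nearest to it in read number.

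*CARHSP1*, which encodes a small cold-shock domain protein that stabilises the messenger RNA of tumour necrosis factor in macrophages, was scarce. Only 13 to 70 reads per library were counted, so counting noise alone was large. It was at 1.87 ± 0.48 CPM in summer and 1.69 ± 0.60 CPM in winter (SD, n = 6 bears). In log2 CPM the lowest, median and highest values were 0.60, 0.86 and 1.53 in summer and −0.31, 0.90 and 1.26 in winter. The winter value of bear 1509, from 13 reads, lay below all others and the remaining libraries of both seasons overlapped. Its log2 fold change was −0.15 (standard error 0.27), lower in 4 of 6 bears, and −0.03 without bear 1509.

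*RTN3* was the steadiest of the 7 genes. It was at 40.3 ± 3.16 CPM in summer and 39.2 ± 4.04 CPM in winter (SD, n = 6 bears). Its lowest, median and highest log2 CPM were 5.15, 5.34 and 5.46 in summer and 5.11, 5.27 and 5.50 in winter. The seasons overlapped almost wholly, and the differences of single bears, from −0.24 in bear 1316 to 0.35 in bear 1509, fell on both sides of 0. For the fit this gave −0.04 on the log2 scale (standard error 0.09), −0.11 without bear 1509 and 0.00 without bear 1316. Its biological coefficient of variation, 0.138, was above that of only 8.49% of the genes nearest to it in read number. Thus the messenger RNA of *RTN3* differed by less than the spread between bears while that of *RBM3* was 5.18-fold higher, and its translation was not measured.

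**Figure D3:**
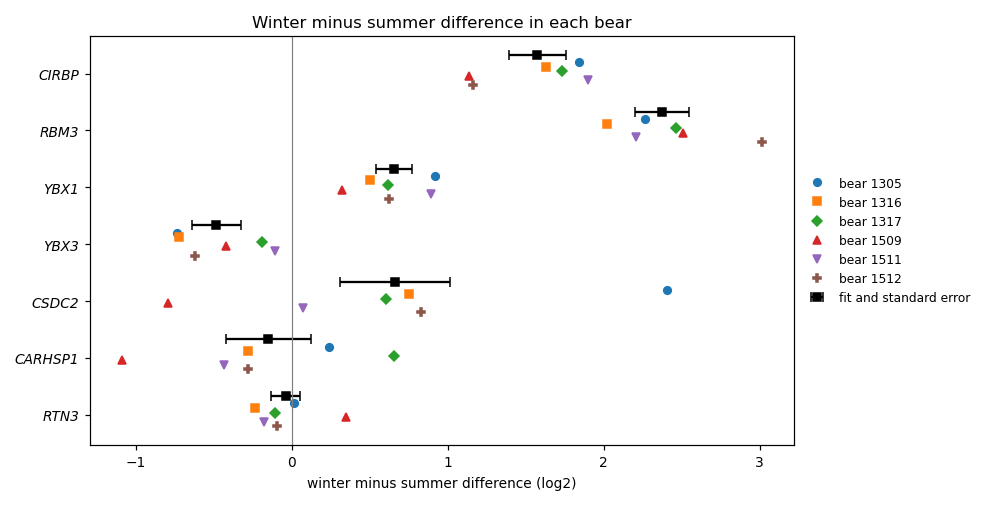
Winter minus summer difference (log2) of each gene in each bear (coloured points), with the fitted log2 fold change and its standard error in black. The 6 bears lie on one side of 0 for RBM3, CIRBP, YBX1 and YBX3, and on both sides for CSDC2, CARHSP1 and RTN3.

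Whether the genes moved together between bears within a season was asked next, a measure that does not use the seasonal difference. Over the 6 winter libraries *CIRBP* and *RBM3* had a Pearson r of 0.81 (Spearman rho 0.83), with an exact two-sided permutation p of 0.0361 (0.0583 for rho). Adjusted over the 6 tests of this family these were 0.15 and 0.31, and without the 2 libraries farthest from the median (bears 1305 and 1316) r was 0.58, and the relation did not pass the adjusted limit. Over the 6 summer libraries r was 0.23 (rho 0.26, exact permutation p = 0.686 and 0.658, adjusted 0.823 and 0.79), and −0.52 without bears 1316 and 1511. A relation between these relatives was not detectable at this number of bears in either season.

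*YBX1* and *YBX3* had an r of 0.82 in summer (rho 0.77, exact permutation p = 0.05 and 0.103, adjusted 0.15 and 0.308), and 0.55 without bears 1316 and 1512. This summer r depended on the scaling, and with library totals in place of TMM it was 0.14. In winter r was 0.66 (rho 0.26, exact permutation p = 0.175 and 0.658, adjusted 0.263 and 0.79), and 0.62 without bears 1305 and 1509. Without bear 1509 alone the winter r was −0.054. For *RBM3* and its reported client *RTN3*, r was 0.63 in summer (rho 0.66, exact permutation p = 0.164 and 0.175, adjusted 0.263 and 0.35), and 0.80 without bears 1316 and 1512. In winter it was −0.01 (rho 0.09, exact permutation p = 0.997 and 0.919, adjusted 0.997 and 0.919), and −0.15 without bears 1509 and 1511, but 0.54 without bear 1509 alone. None of the 6 relations passed an adjusted p of 0.05, and with 6 libraries the exact test cannot go below 0.00278.

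A bear with a high level in summer was not detectably a bear with a high level in winter. The Pearson r of winter with summer levels over the 6 bears ran from −0.27 for *RTN3* to 0.53 for *RBM3*. The lowest exact two-sided permutation p was 0.283 for r and 0.103 for Spearman's rho, both for *RBM3* (rho 0.77), and adjusted over the 7 genes the lowest were 0.713 and 0.719. Without the 2 bears farthest from the summer median, r was 0.70 for *RBM3*, −0.02 for *CIRBP* and −0.34 for *YBX3*. Without bear 1509 alone it turned to 0.63 for *RTN3* and to −0.13 for *YBX1*.

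Over all 12 libraries, deviations from the season means of the 7 genes correlated at a median of 0.36 over the 21 pairs, 16 of them positive, from −0.32 for *CARHSP1* with *RTN3* to 0.67 for *CIRBP* with *YBX1*. Without the winter library of bear 1509, an alternative chosen after seeing the data, 10 of the 21 pairs changed sign. The median was then 0.16 over 11 libraries, *CARHSP1* with *RTN3* was at 0.16 and *CIRBP* with *YBX1* at 0.58. These values share libraries and their scaling, and are a description. Among 10345 named genes whose mean level was 1 log2 CPM or more, the gene whose deviations were most like those of *CIRBP* was *PFKFB3*, a regulator of glycolysis (r = 0.89 over 12 libraries), followed by *ZNF7* (0.88) and the proteasome subunit gene *PSMD4* (0.87). Among the 5 nearest to *RBM3* were *CUNH22orf39* (0.89) and *HSD17B12* (0.85). *YBX1* was nearest to the heat shock factor gene *HSF4* (0.92) and to *SRF* (0.91), *YBX3* to *SMARCD3* (0.93) and *POLR2C* (0.92), and *CSDC2* to *PTPRM* (0.91). *CARHSP1* was nearest to *TNKS1BP1* (0.93) and *RTN3* to the paraspeckle gene *NONO* (0.90). Each was picked from the 5 nearest of 10345 genes over 12 libraries, a choice that by itself favours a high r. Whether any of these relations is more than that was not tested. None of the 7 genes was among the 5 nearest genes of another. *CARHSP1*, with a mean of 0.84 log2 CPM, was below the level limit and could not have been. Without the winter library of bear 1509, *HSF4* was at 0.79 with *YBX1*, *TNKS1BP1* at 0.81 with *CARHSP1* and *PFKFB3* at 0.92 with *CIRBP*.

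**Figure D4:**
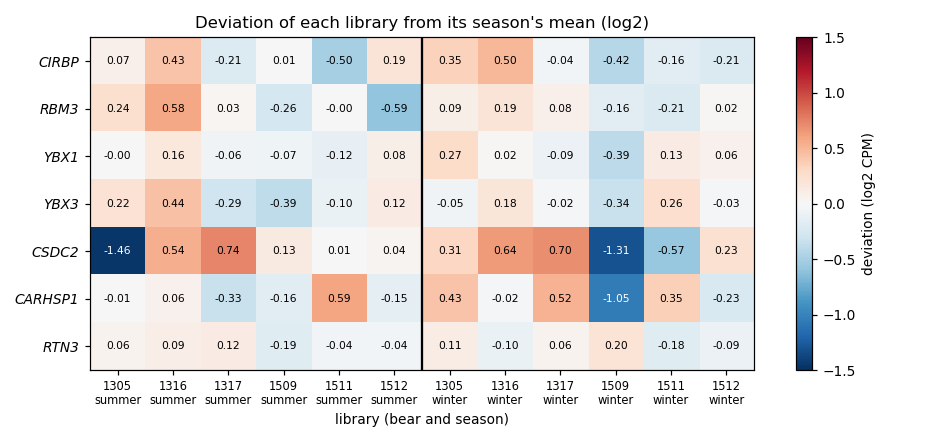
Deviation (log2 CPM) of each library from the mean of its season for the 7 genes, 6 summer libraries on the left and 6 winter libraries on the right. The winter library of bear 1509 was the lowest of its season for CIRBP, YBX1, YBX3, CSDC2 and CARHSP1 and the highest for RTN3, and CSDC2 in the summer library of bear 1305 had the lowest value of the plot, −1.46.

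Genes related to the 7 by function were then compared between seasons, in 6 lists of 81 genes. The lists were chosen with earlier results of these data known. Their adjusted p-values therefore describe the fit and are not independent support. The files held 78 of these genes, 1 of them found through its gene identifier, and 73 passed the filter. At an adjusted p below 0.05, 18 rose and 13 fell in winter, and 42 were not called, where 19.6% of all genes tested were called higher and 19.9% lower. The median log2 fold change of the 73 was 0.11.

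Of the other cold-shock domain genes, 2 of the 5 tested rose and 1 fell, or 40% and 20% beside 19.6% and 19.9% of all genes tested. *DIS3*, the catalytic RNase of the nuclear exosome, rose by 0.52 (standard error 0.10, edgeR adjusted p = 0.00112) in 6 of 6 bears. The number that rose was 1 without bear 1305, 1316 or 1509. *DIS3L*, the cytoplasmic relative of *DIS3*, had a log2 fold change of −0.25, with 6 of 6 bears lower (standard error 0.09, edgeR adjusted p = 0.0437). The call was lost under a replicate block for the bear (0.057) or without bear 1305 (0.0761), 1316 (0.088), 1317 (0.111), 1511 (0.0518) or 1512 (0.136), with 0.0257 to 0.136 over all alternatives. *LIN28A* and *LIN28B*, cold-shock domain genes of stem cells, had 0 reads in every library, and the germ-cell Y-box gene *YBX2* had 9 to 46 reads and was not called at 0.50 (adjusted p = 0.407).

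Among the genes with an RNA recognition motif that are related to *CIRBP* and *RBM3*, 1 of the 5 tested rose and 0 fell in edgeR (0 also in DESeq2, and 0 with unadjusted p-values under 0.05). The share that rose, 20%, is near the 19.6% of all genes tested, and 0% fell beside 19.9%. The one that rose was *TRA2A*, a splicing regulator, at 0.47 (standard error 0.12, edgeR adjusted p = 0.008) in 6 of 6 bears. *RBMX*, at −0.09 (adjusted p = 0.479), and *TRA2B*, at −0.02 (adjusted p = 0.853), were not called.

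Of the genes reported to regulate *CIRBP* and *RBM3* or their splicing with temperature, 4 of the 11 tested rose and 2 fell. These were 36.4% and 18.2%, beside 19.6% and 19.9% of all genes tested, so the share that fell is near the background. *CLK4* and *CLK1*, kinases of splicing factors that are more active at lower body temperature, rose by 1.39 (standard error 0.14, edgeR adjusted p = 1.32e-05) and 1.08 (standard error 0.22, adjusted p = 0.00154), with 6 of 6 bears higher for each. *CREB1*, a transcription factor downstream of neurotrophin signaling, rose by 0.50 (standard error 0.12, edgeR adjusted p = 0.00374). *HSF1*, the main heat shock transcription factor, fell by 0.62 on the log2 scale (standard error 0.17, edgeR adjusted p = 0.00981) in 6 of 6 bears. The related gene *HSF2* went the other way and rose by 0.46 (standard error 0.13, edgeR adjusted p = 0.00983) in 5 of 6 bears. *TRPV4*, a warmth-gated channel gene, had only 7 to 25 reads in a library and a log2 fold change of −0.91 (edgeR adjusted p = 0.0369), with 6 of 6 bears lower. It was not called without bear 1316, 1317, 1509 or 1511, where the adjusted p was 0.117, 0.0867, 0.0945 and 0.0726. The call was also lost under a replicate block for the bear in DESeq2 (0.12), in limma voom (0.0629) and without the filter (0.0518), with 0.0182 to 0.12 over all alternatives, and the number that fell was 1 without bear 1316, 1317 or 1509. *SP1*, reported to drive *CIRBP* in mild cold, and *HNRNPH1*, reported to act on the splicing of *RBM3*, were not called at 0.29 (adjusted p = 0.0683) and −0.09 (adjusted p = 0.557).

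Of the transcripts reported to be bound by CIRBP or RBM3, 2 of the 8 tested rose and 1 fell. These were 25% and 12.5%, beside 19.6% and 19.9% of all genes tested. The DNA damage genes *ATR* and *RPA2* rose by 0.85 (standard error 0.12, edgeR adjusted p = 0.000158) and 0.48 (standard error 0.10, adjusted p = 0.00157), in 6 of 6 bears each. *VEGFA*, the main growth factor of blood vessels, fell by 1.19 on the log2 scale (standard error 0.12, edgeR adjusted p = 1.89e-05) in 6 of 6 bears. Endothelial markers, as given above, were lower in winter too, and their part in this was not tested. *CLOCK*, at 0.28 (adjusted p = 0.167), and *TXN*, listed by a LOC number, at 0.18 (adjusted p = 0.216), were not called.

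Of the genes whose proteins share messenger ribonucleoprotein particles or stress granules with YB-1, 5 of the 21 tested rose and 4 fell, or 23.8% and 19% beside 19.6% and 19.9% of all genes tested, with a median of 0.02. These shares are near the background. *FMR1* (0.76, standard error 0.12, edgeR adjusted p = 0.000258), *SYNCRIP* (0.50, adjusted p = 0.000969) and *FXR1* (0.45, adjusted p = 0.00643) rose in 6 of 6 bears. The stress granule nucleators *G3BP2* (−0.75, standard error 0.17, edgeR adjusted p = 0.00358) and *G3BP1* (−0.52, adjusted p = 0.00753), and *ELAVL1*, which encodes the messenger RNA stabiliser HuR (−0.47, adjusted p = 0.00452), were lower in 6 of 6 bears. The number that rose fell to 3 under a replicate block for the bear in edgeR (4 in DESeq2), and to 3 without bear 1305, 1316 or 1509.

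Of the reticulons and other genes that shape the endoplasmic reticulum, 4 of the 23 tested rose and 5 fell, with a median of 0.05. The shares, 17.4% and 21.7%, are near the 19.6% and 19.9% of all genes tested. The reticulons *RTN2* and *RTN4* were, like *RTN3*, not called, at 0.11 (adjusted p = 0.507) and −0.21 (adjusted p = 0.224). For *RTN1*, 182 of the 212 reads came from the winter library of bear 1509 and the others held at most 15, so its log2 fold change is that of 1 library. *RETREG2*, a receptor for the autophagy of the endoplasmic reticulum, rose by 0.85 (standard error 0.12, edgeR adjusted p = 0.000142) in 6 of 6 bears, and *LNPK* rose by 0.46 (adjusted p = 0.00932) in 5 of 6. *REEP3* rose by 0.34 (edgeR adjusted p = 0.0236) in 5 of 6 bears but was not called without bear 1305, 1316, 1509 or 1512, at adjusted p of 0.0625, 0.0563, 0.0551 and 0.0819 (0.00898 to 0.109 over all alternatives). *REEP2* (−1.41, standard error 0.38, edgeR adjusted p = 0.00986), *REEP4* (−1.02, adjusted p = 0.00291) and *RTN4IP1* (−0.61, adjusted p = 0.0105) were lower in 6 of 6. The number that rose was 2 without bear 1305, 1316, 1509 or 1512.

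**Figure D5:**
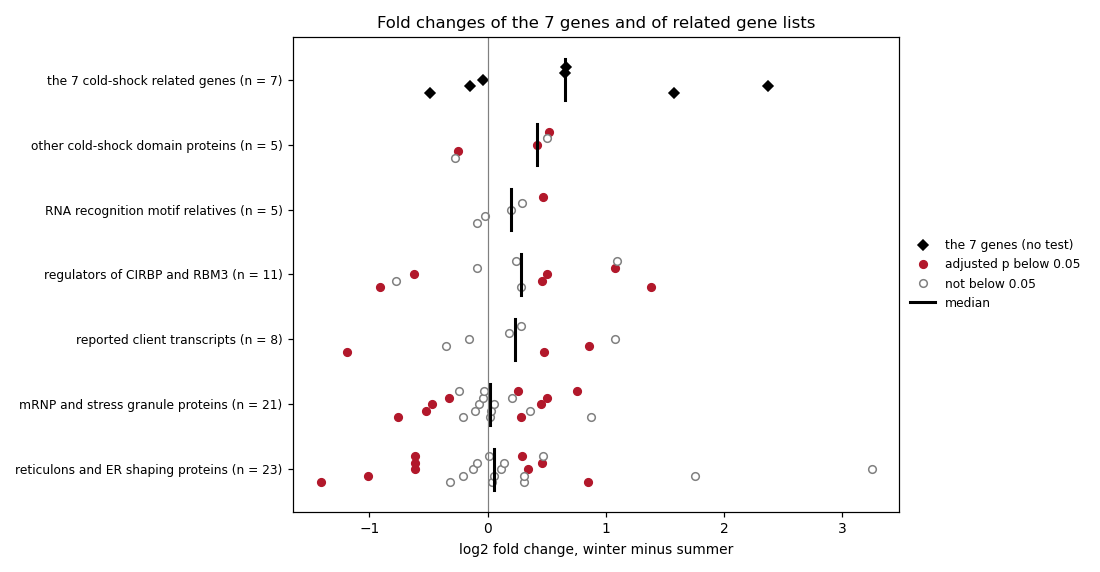
Log2 fold change (winter minus summer) of the 7 genes (black, no test) and of the tested genes of the 6 related lists (red where the edgeR adjusted p was below 0.05), with a bar at the median of each row. RBM3 and CIRBP, at 2.37 and 1.57, were proposed with this difference known. Of the called genes of the lists, CLK4, at 1.39, had the largest rise. RTN1 (3.25) and ATL1 (1.75), which were not called, lie higher than CIRBP.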

How the data were processed

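Poly-A RNA of 12 muscle libraries was analysed, 6 of summer and 6 of winter. The authors prepared strand-specific libraries, aligned the reads with TopHat2 2.1.1 to ASM358476v1, a brown bear genome, and counted reads per gene with featureCounts 1.6.2 on the stated strand (versions from the submitters' processing notes). They deposited these whole-number counts per gene without normalization. Isoforms were not counted separately, and the labels do not assign the libraries to sequencing lanes, so a lane effect was not tested.

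From these counts, genes with fewer than 30 reads in all were left out, TMM factors computed, and season fitted as the only term with glmQLFit and glmQLFTest (R 4.3.3, edgeR 4.0.16). A standard error was derived from this unpaired fit, as the absolute log2 fold change over the square root of the test's F value. It is not the error of the differences within bears. Alternatives used DESeq2 1.42.0, limma 3.58.1, other scalings and filters, a replicate block for the bear, and each bear left out. Fits were tested on simulated data. Exact permutation tests over all pairings were two-sided. The same animals gave both seasons by the study's methods, and deviations of the libraries of a bear correlated at 0.0903 to 0.344. For summer and winter libraries of different bears the median was −0.063 and the highest 0.142. The main fit did not use this pairing. The genes and lists were chosen with earlier results of these data known. In each list, up to 3 called genes with the greatest increase and 3 with the greatest decrease were named by rule, along with the 7 genes and, for each, the 5 genes with the most similar deviations. Genes of the lists that were not called were named after their values were seen, and so was *HSF2*, which was called. Symbols listed by LOC numbers were matched by gene identifier in the RefSeq table of UrsArc2.0, whose coordinates were not used. No level was scaled by transcript length, since no lengths of the build were used here. Ranks among genes of similar read number, and read ratios of a pair of genes, are therefore compared only as read numbers. Some genes that the rule names are not reported here.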

Additional observations from a re-analysis of the deposited data

Results flagged for a closer look

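Of 27 sets of 6 values examined (the levels of the 7 genes in each season, their differences between seasons, and the read ratios), 2 held a library far from the others, with a gap to its nearest neighbour, relative to the whole range, above Dixon's critical value. About 1 in 20 sets is expected to do so by chance. *CSDC2* in the summer library of bear 1305 was at 2.35 log2 CPM, where the other summer libraries were at 3.82 to 4.55. The *YBX1* to *CSDC2* read ratio of the same library was 116, where the others were at 24.0 to 42.8, which rests on the same *CSDC2* count of 138 reads. The reason for this low count was not tested.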

How the results depend on the processing

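In each of the alternatives run, *RBM3* (2.28 to 2.47), *CIRBP* (1.50 to 1.66) and *YBX1* (0.58 to 0.72) kept a positive log2 fold change and were called higher. These calls restate the difference that the genes were proposed from and are no separate support. The fits with the bear as a replicate block gave 2.41 for *RBM3*, 1.57 for *CIRBP*, 0.65 for *YBX1* and −0.47 for *YBX3* in edgeR, and moved no call of the 7 genes. *YBX3* ranged from −0.56 to −0.42 and *RTN3* from −0.11 to 0.0022 when 1 bear was left out, with 0 to 1 of the 7 genes called lower, and 0 were called lower with an adjusted p below 0.01 and fold limits of 1.3 and 0.77. With the replicate block, 0 other cold-shock domain genes fell in edgeR and 0 in DESeq2. Of the messenger ribonucleoprotein list, 3 genes rose in edgeR and 4 in DESeq2 with this block. Without the filter 0 cold-shock domain genes fell, 1 regulator fell and 3 messenger ribonucleoprotein genes rose, and with filterByExpr 0 cold-shock domain genes fell. With library totals, which moved the median log2 fold change of all genes from −0.0021 to −0.081 and the numbers called higher and lower from 3386 and 3445 to 2706 and 3789, 3 messenger ribonucleoprotein genes and 2 reticulon or shaping genes rose, whereas DESeq2 gave 7 of the latter. With 1 bear left out, 1 to 2 cold-shock domain genes rose and 0 to 1 fell, 1 to 2 regulators fell, 3 to 5 messenger ribonucleoprotein genes rose and 2 to 5 reticulon or shaping genes rose.

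The correlations were unstable. With 1 bear left out, r ranged from −0.44 to 0.66 for *CIRBP* with *RBM3* in summer, from −0.68 to 0.54 for *RBM3* with *RTN3* in winter and from −0.054 to 0.91 for *YBX1* with *YBX3* in winter. Between seasons it ranged from −0.13 to 0.45 for *YBX1*, −0.15 to 0.70 for *CSDC2*, −0.038 to 0.61 for *CARHSP1* and −0.48 to 0.63 for *RTN3*. With library totals r was 0.14 for *YBX1* with *YBX3* in summer, 0.24 for *RBM3* with *RTN3* in winter and −0.42 for *YBX1* between seasons. Where a call or direction changed, the cause was not tested. *CARHSP1*, with 13 to 70 reads per library, had few reads to show a difference.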
